A study of Mus musculus with 12 samples.

Results

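The Vps13 family of mice has 4 genes, Vps13a, Vps13b, Vps13c and Vps13d. They were chosen by name from a count table of 23420 genes, after earlier results of these data had drawn attention to the lower counts of Vps13c and Vps13d in aged mice. All 4 passed the filter on low counts and were among the 9742 genes tested. RNA was sequenced from monocytic myeloid-derived suppressor cells (M-MDSCs), which are immature monocyte-like cells that restrain T cells and can become bone-resorbing osteoclasts. The gate for these cells in the marrow was CD11b+Ly6G-Ly6Chi. The mice were male C57BL/6JNIA animals with no further genotype or treatment named, 6 aged mice of 24 months and 6 young mice of 6 months, with 1 library per mouse. The study asked what separates M-MDSCs of aged mice, which form more osteoclasts, from those of young mice.

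Vps13 proteins are long rods with a hydrophobic groove along their length. They span the gap between organelles at membrane contact sites, and lipids are thought to flow through the groove in bulk, unlike the small shuttle proteins that carry single lipid molecules. At the receiving and donating membranes they work with scramblases, which let lipids cross from one leaflet to the other, and they are held in place by anchor proteins. VPS13A bridges the endoplasmic reticulum with mitochondria and lipid droplets, and its loss causes chorea-acanthocytosis, a disease of neurons and misshapen red cells. VPS13B acts at the Golgi apparatus, and its loss causes Cohen syndrome, in which neutropenia is common. VPS13C bridges the endoplasmic reticulum with late endosomes and lysosomes, and its loss causes an early form of Parkinson's disease. VPS13D is needed for mitochondrial and peroxisomal shape and clearance, and its loss causes an ataxia.

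All 4 are long genes with many exons. On mm10, Vps13a lies on the minus strand at chr19:16615366-16780933, with 72 exons that cover 11164 bases. Vps13b lies on the plus strand at chr15:35371546-35931229, with 62 exons that cover 13371 bases. Vps13c lies on the plus strand at chr9:67840396-67995634, with 85 exons that cover 11523 bases. Vps13d lies on the minus strand at chr4:144972622-145195005, with 70 exons that cover 15849 bases once overlapping exons of its transcripts are merged. By length over exons they ranked 104, 49, 91 and 22 among the 9742 genes tested. The microRNA genes Mir599 and Mir875 lie inside Vps13b on the other strand and share 0 exon bases with it, and no other listed gene overlaps a Vps13 gene.

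The start regions of the family members are shown because the 4 genes moved in the same direction between ages. RefSeq promoter sequences were found for 2 of the 4, Vps13a and Vps13d. The sequences give the 250 bases before the gene start on the minus strand of GRCm38.p6, at chr19:16780934-16781183 for Vps13a and chr4:145195006-145195255 for Vps13d, with every match to a searched motif in capitals:
Vps13a: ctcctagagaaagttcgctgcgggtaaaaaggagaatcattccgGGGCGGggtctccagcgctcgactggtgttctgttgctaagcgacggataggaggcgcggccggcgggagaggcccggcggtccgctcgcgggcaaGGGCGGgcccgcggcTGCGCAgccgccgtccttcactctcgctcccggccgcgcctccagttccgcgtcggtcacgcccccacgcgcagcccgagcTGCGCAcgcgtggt
Vps13d: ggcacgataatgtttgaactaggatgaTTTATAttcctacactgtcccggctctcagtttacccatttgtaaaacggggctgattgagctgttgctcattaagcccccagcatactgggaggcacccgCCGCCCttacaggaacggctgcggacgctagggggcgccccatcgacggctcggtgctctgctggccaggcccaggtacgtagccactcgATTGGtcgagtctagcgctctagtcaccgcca

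The 2 start regions differed in base composition. That of Vps13a held 71.2% G and C and 37 CpG dinucleotides, and that of Vps13d held 57.6% and 17, compared to medians of 52.4% and 6 over 32851 mouse promoters of the same length. The search covered 7 motifs on both strands. The GC box (GGGCGG) matched 2 times in Vps13a and 1 time in Vps13d, and 32.7% of all promoters hold it. The short site of NRF1 (TGCGCA), a factor of nuclear genes for mitochondria, matched 2 times in Vps13a and is in 6.43% of all promoters. The CCAAT box (CCAAT, in 33.9% of promoters) and the TATA box (TATAAA, in 12.4%) each matched 1 time in Vps13d, and the TATA box match lay 223 bases before the start. The E-box (CACGTG, in 6.02%), the ETS core (CCGGAAG, in 6.91%) and the YY1 core (GCCATNTT, in 3.91%) had no match in these windows. The motifs shared by both start regions came down to the GC box, and a match is a run of letters, not a bound site.

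The read pairs assigned to genes after the mapping quality filter numbered 8737941 to 16300374 per library for the aged group and 4613239 to 9079237 for the young group, and the sample numbers in the alignment file names were 17 to 26 in aged and 11 to 16 in young mice. What the numbers stand for is not given in the sources used here, and whatever they track and age cannot be told apart. Classical monocyte markers summed to 11953 to 17262 CPM (counts relative to the library total, brought to a common scale with TMM factors) in aged and 14671 to 19238 CPM in young mice, while 5 neutrophil markers, chiefly the granule genes Ngp and Ltf, summed to 62301 to 79412 and 50596 to 68802 CPM. The neutrophil markers were thus more abundant than the monocyte markers in every library, although the gate was Ly6G-, and the monocyte marker Ly6c1 was near 0 while Ly6c2 was present. Ly6g was not analysed here, so that the gate could not be checked on it and the cell type of these libraries rests on the label. A gene was called higher or lower where its edgeR adjusted p was under 0.05. Of the 5 neutrophil markers 3 were called higher in aged mice (Retnlg, Camp and Ngp) and 0 lower, and of 8 monocyte markers 3 were called higher (Ly6c1, Ly6c2 and Cd14) and 1 lower (Itgam). All 6 resident macrophage markers tested were called higher in aged mice, with sums of 36.3 to 687 CPM compared to 29.1 to 45.5 CPM, and aged mouse 1 held the highest sum, while the next aged mouse was at 204 CPM. Aged mouse 1 also held the highest sums of the B cell, plasma cell, erythroid, T and NK cell, megakaryocyte and stromal and endothelial markers. Of 5 proliferation markers 2 were called lower in aged mice, Mki67 (log2 fold change -2.01) and Top2a (-0.62). Cdk1 (-0.04), Birc5 (-0.12) and Ccnb1 (0.17) were not called. Their sums were 281 to 672 compared to 569 to 1169 CPM, with Mki67 alone at a mean of 98.8 compared to 398 CPM. The 1 dendritic cell marker tested was called lower, and 1 of 2 stromal and endothelial markers tested, Cxcl12, was called higher. The defining erythroid marker Hba-a1 was at 0 in every library. The part of these markers in the results below was not tested, and in bulk samples fewer cells of a type and less RNA per cell cannot be told apart.

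All 4 Vps13 genes had lower CPM in aged mice, by 35.9% to 47.1%, with the largest difference in Vps13c and the smallest in Vps13a. For Vps13b, Vps13c and Vps13d every aged mouse lay below every young mouse. The edgeR test called 4 of 4 lower in aged mice, where 23.0% of the 9742 genes tested were called lower and 22.4% higher. Since this contrast chose the genes, these values are a description and nothing is read from that count.

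Vps13c, the bridge to late endosomes and lysosomes, had the largest difference. Its level in CPM was lowest at 72.8, with a median of 76.4 and a highest value of 83.5, in aged mice, and it was 126, 145 and 177 in young mice. The mean was 77.8 ± 3.97 CPM in aged and 147 ± 16.6 CPM in young mice (SD, n = 6 each). The aged mice lay close together, and their highest value was far under the lowest young one. The log2 fold change of aged over young mice was -0.92 ± 0.075 (SE), a fall of 47.1%. The raw counts behind these levels ran from 653 to 1335 in aged and from 674 to 1630 in young mice.

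Vps13b, the Golgi member, was the most abundant of the family, also per length. It ranged from 217 to 326 CPM with a median of 263 in aged mice, and from 434 to 501 CPM with a median of 452 in young mice. The 2 ages did not overlap, and the aged mice were more spread out than the young ones (264 ± 39.7 compared to 459 ± 26.6 CPM, SD, n = 6 each). Aged mouse 7 had the highest aged level. The log2 fold change was -0.80 ± 0.0904 (SE), with counts of 2152 or more in every mouse.

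Vps13d, the member needed for mitochondrial clearance, had the lowest coefficient of variation of the 4 in the edgeR fit. It ranged from 218 to 245 CPM with a median of 236 in aged mice and from 355 to 414 CPM with a median of 379 in young mice, again with no overlap. Its mean was 233 ± 12.3 CPM in aged and 382 ± 22.2 CPM in young mice (SD, n = 6 each). The log2 fold change was -0.71 ± 0.0603 (SE). The coefficient of variation that edgeR fitted between mice was 8.36% for Vps13d and 9.86% for Vps13c, compared to a median of 13.9% over the genes tested, so that the SE of both was small.

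Vps13a, the partner of the scramblase XK, was the lowest and most variable member. It ranged from 23.6 to 42.5 CPM with a median of 30.4 in aged mice and from 35.7 to 56.6 CPM with a median of 48.9 in young mice. The ages overlapped: aged mouse 7 at 42.5 CPM was above young mouse 10 at 35.7 CPM, while the other 5 aged mice were below all young mice. The mean was 31.2 ± 6.39 CPM in aged and 48.9 ± 7.54 CPM in young mice (SD, n = 6 each), and the log2 fold change was -0.64 ± 0.135 (SE). Its fitted coefficient of variation was 16.5%. At its smallest count, 233 fragments, counting error alone is 6.55%, so that counting adds little to the spread between mice. Over all genes tested, 12.1% had ranges that did not overlap with aged mice lower, and 9.68% had such ranges with aged mice higher. Of the 4 Vps13 genes 3 were of the first kind, again a description of the contrast that chose them. Of the 265 genes of like length described further on, 158 were of the first kind too.

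**Figure D1:**
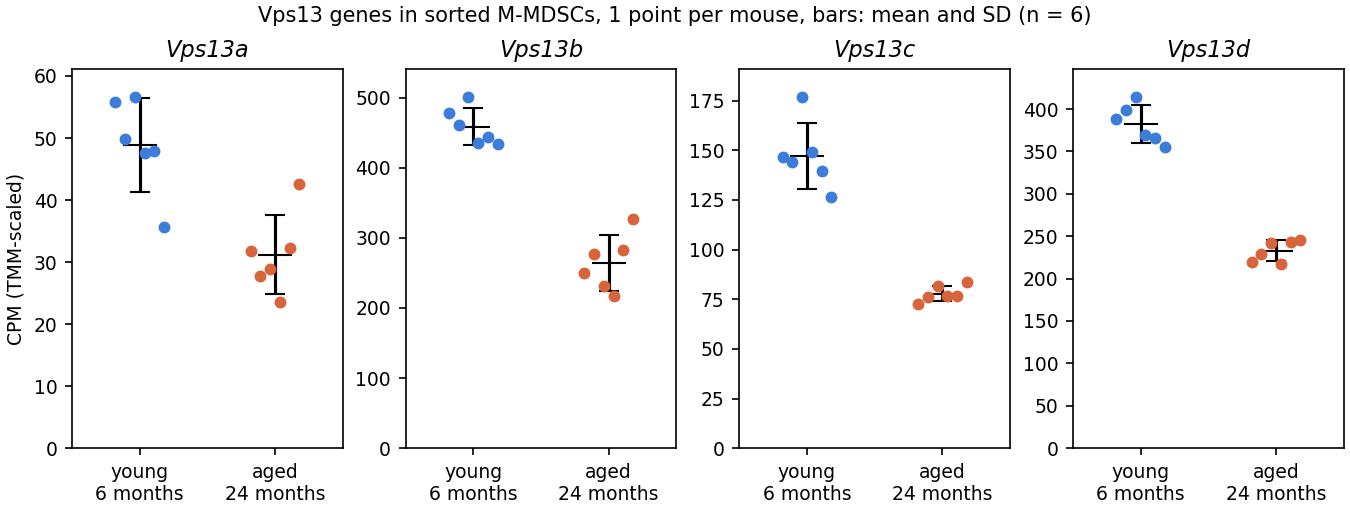
TMM-scaled CPM (vertical axes, from 0) of the 4 Vps13 genes in M-MDSCs of young and aged mice, with 1 point per mouse and black bars for the mean and SD of 6 mice. The ages are separate for Vps13b, Vps13c and Vps13d, and for Vps13a aged mouse 7 at 42.5 CPM lies above young mouse 10 at 35.7 CPM.

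Levels of the members can be set against each other only per length. In TPM, counts per base of exon scaled to the same total in every library, the order was Vps13b, Vps13d, Vps13c, Vps13a in all 12 mice. In aged mice the levels were 33.5 ± 6.39 TPM for Vps13b, 24.8 ± 2.37 for Vps13d, 11.4 ± 1.10 for Vps13c and 4.75 ± 1.22 for Vps13a (SD, n = 6). In young mice they were 75.3 ± 13.2, 52.9 ± 9.47, 28.2 ± 7.01 and 9.67 ± 2.42 TPM in the same order. The ranges of Vps13b and Vps13d overlapped between aged mice, with a highest Vps13d of 28.1 TPM, while within each mouse Vps13b was the higher. The family summed to 59.6 to 92.6 TPM in aged and 131 to 218 TPM in young mice.

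The shares of the members in that sum overlapped between ages for each member. Vps13b made up 44.7 ± 2.75% of it in aged and 45.4 ± 0.941% in young mice, Vps13d 33.5 ± 2.07% and 31.9 ± 0.652%, Vps13c 15.4 ± 1.22% and 16.9 ± 0.925%, and Vps13a 6.31 ± 0.756% and 5.77 ± 0.600% (SD, n = 6 each). The TPM scale gave larger age differences than CPM, with log2 ratios of mean TPM of -1.03 for Vps13a, -1.17 for Vps13b, -1.31 for Vps13c and -1.09 for Vps13d, and its total gives more weight to short genes.

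The ratio between members within a mouse does not depend on the scaling of its library. Of the 6 ratios, that of Vps13c over Vps13d did not overlap between ages. On the log2 scale per length it ranged from -1.21 to -1.05 in aged mice (mean -1.12 ± 0.0516) and from -1.03 to -0.77 in young mice (mean -0.92 ± 0.0992, SD, n = 6 each), so that Vps13c was lower against Vps13d by 0.20 in aged mice, a description of genes chosen by this contrast. The ratio does depend on gene length, and once the length dependence described further on was subtracted the difference was -0.38, again with no overlap (-1.30 to -1.15 in aged and -0.97 to -0.63 in young mice). The ranges of neighbouring mice of the 2 ages nearly met, at -1.05 and -1.03. The other 5 ratios overlapped, with differences between ages of -0.09 for Vps13b over Vps13d to 0.26 for Vps13a over Vps13c.

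Fold changes across the whole table went with gene length. In 10 parts of equal gene number by length, the part with the shortest genes, 42 to 1142 bases, had a median log2 fold change of 0.46, and 4.40% of them were called lower in aged mice. The part with the longest genes, 6304 to 83437 bases, had a median of -0.41, and 64.7% were called lower. Across genes, which are not independent replicates, Spearman's rho between length and log2 fold change was -0.48. The Vps13 genes lie at the far end of this range.

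Genes of like length, from 20% shorter to 25% longer than a member, therefore give each member a nearer reference. Around Vps13c there were 195 such genes, of which 149 (76.4%) were called lower and 7 higher. Their median log2 fold change was -0.55, the quartiles were -0.78 and -0.34, and 33 of the 195 were lower than Vps13c. Vps13c thus lay under the lower quartile of genes of its length.

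The other members lay nearer the middle of their windows. Around Vps13b the median of 114 genes was -0.67, with 38 lower than Vps13b, and around Vps13a the median of 227 genes was -0.53, with 90 lower than Vps13a. Around Vps13d the median of 52 genes was -0.77, and 29 of them were lower than Vps13d, which was thus a little less changed than the median gene of its length. The windows share genes, and together they held 265 genes, of which 201 (75.8%) were called lower and 8 higher.

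The dependence on length could be read in each library without the Vps13 genes. For each mouse, the deviation of log2 CPM from the mean of all 12 libraries was regressed on log2 length over all other genes tested. The slope per doubling of length was -0.109 ± 0.0442 in aged mice (-0.151 to -0.0242) and 0.109 ± 0.0771 in young mice (0.0286 to 0.210; SD, n = 6 each), a difference of -0.219 (p = 0.0021645, exact two-sided permutation test, the smallest p that 6 against 6 mice can give). All 6 aged mice had a negative slope and all 6 young mice a positive one. Genes of 8000 bases or more were shifted by -0.263 ± 0.094 in aged and 0.250 ± 0.0931 in young mice (SD, n = 6 each), with the same exact permutation p of 0.0021645.

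The mice that stood nearest the other age in the slope also did so in the Vps13 genes. Aged mouse 7, with the slope nearest 0 of the aged mice, had a mean deviation of the 4 genes of -0.14, and the other aged mice lay between -0.58 and -0.33. Young mouse 10, with the smallest slope of the young mice at 0.0286, had a mean deviation of 0.18, and the other young mice lay between 0.34 and 0.57.

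**Figure D2:**
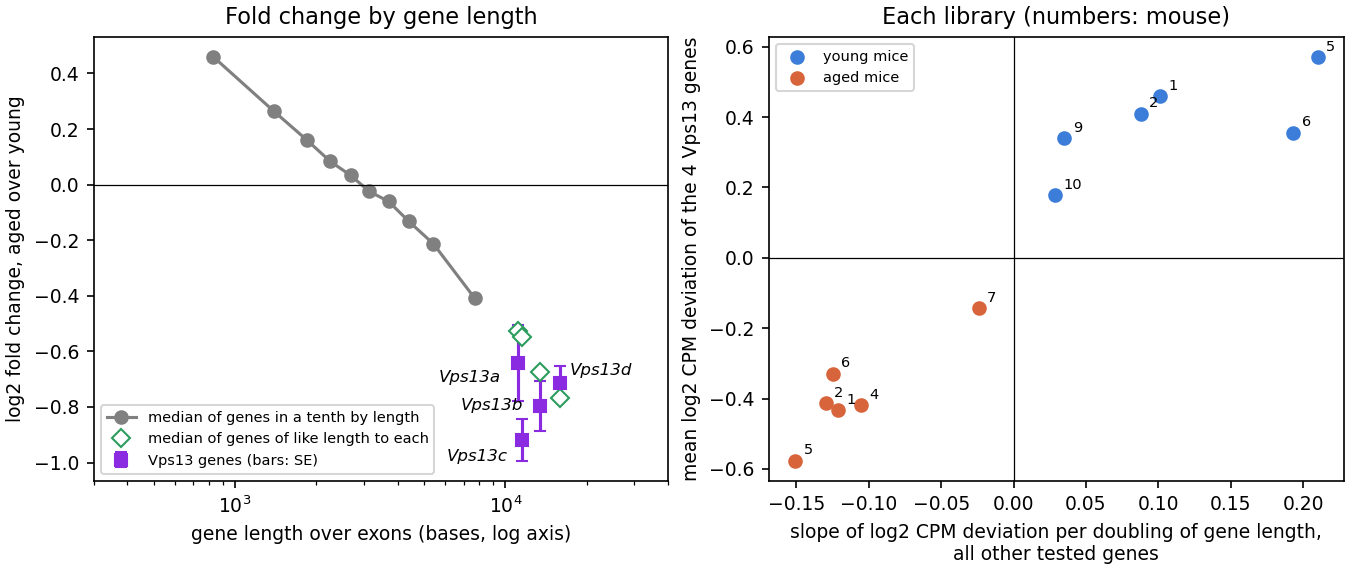
Left, log2 fold change of aged over young mice against gene length over exons (log axis): grey points are medians of 10 equal parts of the genes tested by length, squares the Vps13 genes with their SE, and open diamonds the medians of genes of like length to each. Right, mean log2 CPM deviation of the 4 Vps13 genes against the length slope of each library, with 1 numbered point per mouse; the aged mice lie at slopes of -0.151 to -0.0242 and the young mice at 0.0286 to 0.210.

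Within an age, the relation of the slope to each member was computed over 6 mice, 8 relations in all. The correlation was positive in 8 of 8, from 0.49 to 0.90. The slope reflects how long genes deviate in a library, so a positive relation is expected of most long genes. How many genes of like length share it was not computed, and nothing about the Vps13 genes in particular is read from it. For Vps13c in young mice the Pearson r was 0.86 and Spearman's rho 1 (exact permutation p = 0.00278 for each, adjusted p = 0.0222 over the 8 relations), and r was 0.83 without young mice 5 and 6, the farthest from the median slope. The adjusted exact permutation p of the other 7 was 0.104 to 0.292, and in aged mice r for Vps13a went from 0.90 to -0.09 and for Vps13b from 0.74 to -0.91 without aged mice 5 and 7, so that those relations rested on these mice. Without the farthest 2 mice, r was 0.71 for Vps13c and 0.39 for Vps13d in aged mice, and in young mice it went from 0.59 to 0.81 for Vps13a, from 0.49 to 0.96 for Vps13b and from 0.59 to 0.92 for Vps13d.

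The smooth dependence of each library on length was then subtracted, with the Vps13 genes left out of the curve. The curve alone differed between ages by -0.58 at the length of Vps13a, -0.68 at Vps13b, -0.60 at Vps13c and -0.77 at Vps13d on the log2 scale. After the subtraction, 16.5% of all genes tested were called lower and 18.4% higher, and 1 of the 4 Vps13 genes, Vps13c, was called lower. These calls use the same contrast that chose the genes and are given as a description.

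Vps13c kept a lower level in aged mice. Its corrected level was 90.0 to 103 CPM with a median of 94.8 in aged and 112 to 128 CPM with a median of 118 in young mice, with no overlap, and the log2 fold change was -0.32 ± 0.054 (SE). The share of all genes tested with no overlap after the correction was not computed, so nothing is read from that separation. Vps13b was 282 to 367 CPM in aged and 329 to 380 CPM in young mice, with overlap and a log2 fold change of -0.13 ± 0.071 (SE). Vps13a was 31.5 to 45.7 CPM in aged and 31.7 to 44.8 CPM in young mice, almost the same range, with a log2 fold change of -0.07 ± 0.103 (SE). For Vps13d the direction turned: 275 to 325 CPM in aged and 270 to 311 CPM in young mice, with a log2 fold change of 0.06 ± 0.0603 (SE).

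**Figure D3:**
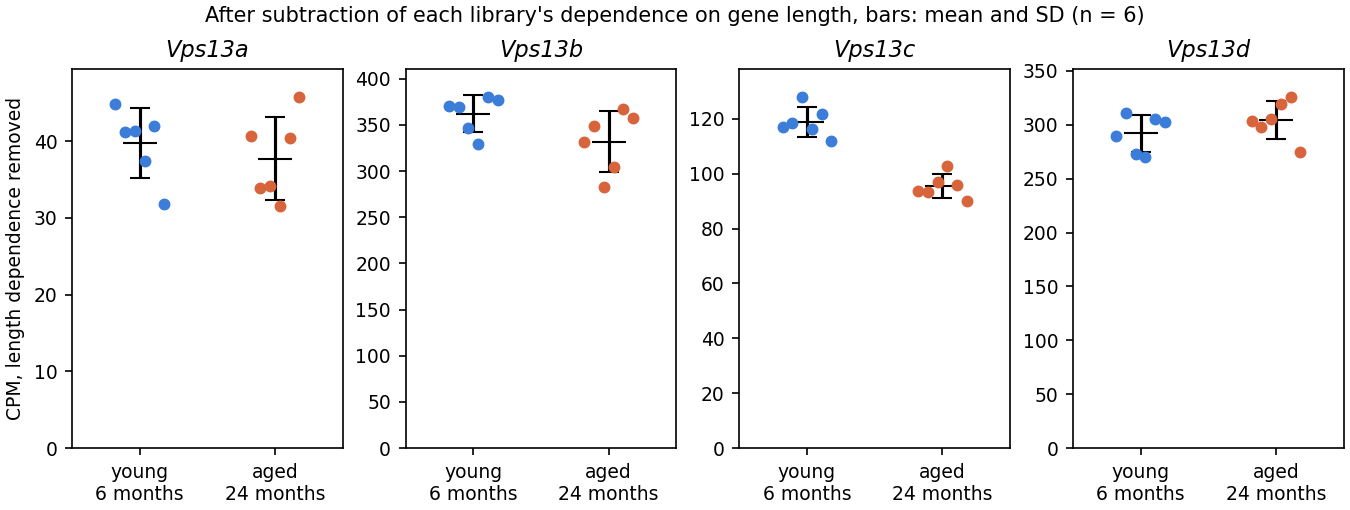
CPM of the 4 Vps13 genes after each library's dependence on gene length was removed (vertical axes, from 0), with 1 point per mouse and black bars for the mean and SD of 6 mice. The ages stay apart for Vps13c, at 90.0 to 103 CPM in aged and 112 to 128 CPM in young mice, and overlap for the other members. The share of all genes tested that stay apart on this scale was not computed.

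The 265 genes of like length had a median of 0.01 after the same subtraction, with 61 called lower and 56 higher. These genes took part in the fit of the curve, so a median near 0 follows from the subtraction. Scaling libraries on the 427 genes of 8000 bases or more, in place of all genes, moved the median of all genes from 0.01 to 0.52 and turned the calls to 6632 higher and 371 lower. On that scale the members were at -0.13 for Vps13a, -0.28 for Vps13b, -0.40 for Vps13c and -0.20 for Vps13d, and Vps13a was not called. A correction for GC content of the transcript, which was 40.1% in Vps13a, 46.2% in Vps13b, 46.1% in Vps13c and 49.2% in Vps13d, left all 4 called, at -0.59, -0.75, -0.87 and -0.69.

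**Figure D4:**
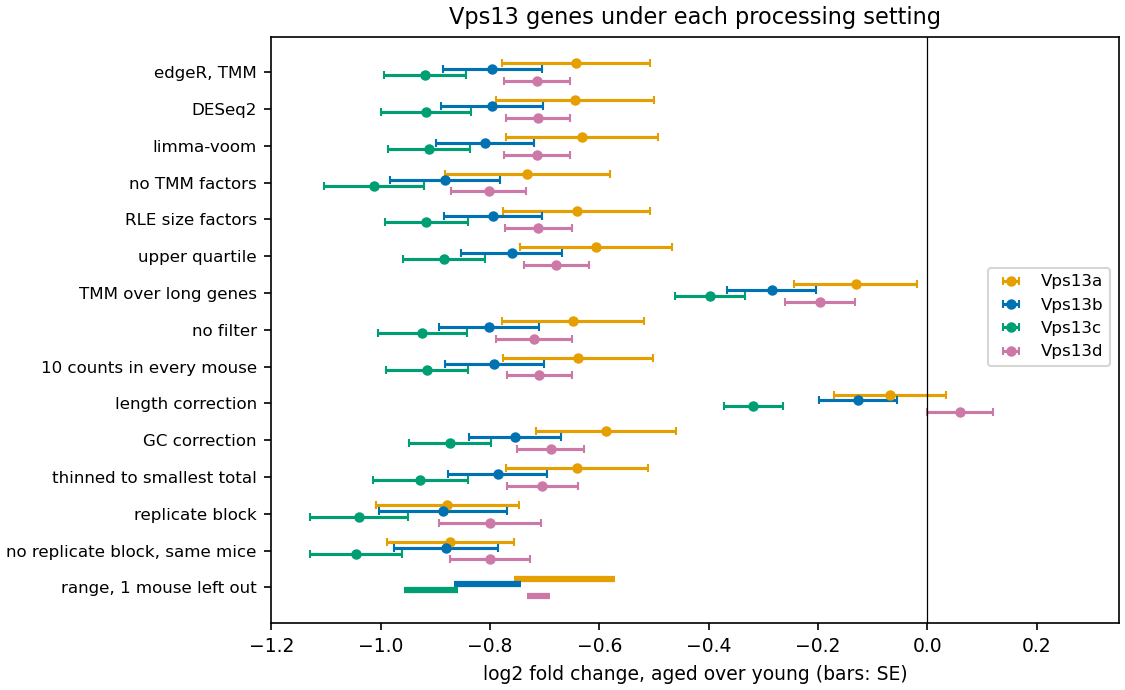
Log2 fold change of aged over young mice (horizontal axis; bars are SE) of the 4 Vps13 genes under each processing setting, with the range over fits that leave out 1 mouse as a thick line. Vps13c is the lowest of the 4 in every setting, from -1.04 to -0.32, and the members come nearest 0 with the length correction.

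Vps13c and Vps13d were noted for their age difference, and whether the spread among mice of 1 age played a part in that is not known. Correlations of log2 CPM between members were computed within each age over 6 mice, 12 relations in all. In young mice r was 0.79 to 0.91, and in aged mice 0.37 to 0.86, positive in 12 of 12. Many other genes were as alike to a member over all 12 mice after the mean of each age was subtracted: among all genes tested, Vps13a ranked 32 in likeness to Vps13b (r = 0.79) and Vps13c 54 in likeness to Vps13d (r = 0.78), and Vps13b ranked 2109 in likeness to Vps13c (r = 0.41). Vps13a and Vps13b in young mice had r = 0.79 and rho = 1 (exact permutation p = 0.00278 for each, adjusted p = 0.0333 over the 12 relations), and r was 0.94 without young mice 5 and 10. Most of the other relations rested on 2 mice. Without aged mice 5 and 7, r went from 0.48 to -0.47 for Vps13a and Vps13c, from 0.37 to -0.44 for Vps13b and Vps13c, from 0.65 to -0.07 for Vps13a and Vps13d, from 0.86 to 0.17 for Vps13a and Vps13b and from 0.62 to 0.03 for Vps13b and Vps13d. In young mice it went from 0.84 to 0.17 for Vps13c and Vps13d and from 0.81 to 0.23 for Vps13a and Vps13c without mice 5 and 10, and from 0.80 to 0.35 for Vps13b and Vps13c without mice 1 and 5. It stayed at 0.92 for Vps13b and Vps13d in young mice. Smaller drops were seen for Vps13a and Vps13d in young mice without mice 5 and 10 (0.81 to 0.58). The same held for Vps13c and Vps13d in aged mice without mice 4 and 7 (0.76 to 0.45). The adjusted exact permutation p of r was 0.0778 or more in the aged mice, and 1 of the 12 relations passed the threshold of 0.05. After the length dependence was subtracted, r was positive in 2 of 6 aged and 3 of 6 young relations, and the adjusted exact permutation p was 0.278 or more in all 12.

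The genes with the pattern most like a member over the 12 mice, after the mean of each age was subtracted, were C2cd5 for Vps13a (r = 0.97), Ranbp2 for Vps13b (r = 0.89), Ttll4 for Vps13c (r = 0.91) and Cep85 for Vps13d (r = 0.93). The next 2 were Bace1 (r = 0.89) and Zfp568 (r = 0.88) for Vps13a, Gnptab and Abca13 (r = 0.87 for both) for Vps13b, Ryr1 and Gm11602 (r = 0.91 for both) for Vps13c, and Zfp518b and Msh3 (r = 0.90 for both) for Vps13d. No Vps13 gene was among the 3 most like another one. Several of these genes were low, such as Ryr1 at a mean of 2.17 CPM and Ttll4 at 4.99 CPM, and all values share their libraries.

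The other bridge-like lipid transfer proteins showed a mixed picture. Of 6 tested, 3 were called lower and 0 higher, with a median log2 fold change of -0.20, next to 23.0% called lower, 22.4% called higher and a median of 0.01 over all genes tested. These genes are long too, with a median length of 8005 bases, and in the part of the table with the longest genes the median was -0.41. After the length correction 2 were called higher and 1 lower, with a median of 0.14. The largest fall was that of 4932438A13Rik, the mouse gene of BLTP1, which at 15883 bases is as long as Vps13d. It was at 275 ± 30.4 CPM in aged and 554 ± 74.3 CPM in young mice (SD, n = 6 each), a log2 fold change of -1.01 ± 0.0973 (SE, edgeR adjusted p = 7.03e-06). It was still lower after the length correction, by -0.23 (edgeR adjusted p = 0.0121).

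The autophagy bridges Atg2a and Atg2b, which feed lipid to the growing autophagosome, fell by 0.23 (edgeR adjusted p = 0.0121) and 0.47 on the log2 scale (edgeR adjusted p = 9.63e-04), and after the length correction they were at 0.08 and 0.07 and not called. Atg2a was also not called once every library was thinned to the smallest total of assigned counts (-0.17, edgeR adjusted p = 0.0697). 2610507B11Rik, the gene of BLTP2, was at -0.17, Uhrf1bp1 at -0.13 and Uhrf1bp1l at 0.01, and none of them was called. After the correction 2610507B11Rik (0.20, edgeR adjusted p = 0.0425) and Uhrf1bp1l (0.31, edgeR adjusted p = 0.00951) were called higher.

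Among 4 scramblases that work beside bridges, Xk, the partner of VPS13A at the plasma membrane and the endoplasmic reticulum, was called lower. It was at 27.4 ± 5.04 CPM in aged and 39.0 ± 3.95 CPM in young mice (SD, n = 6 each), a log2 fold change of -0.50 ± 0.113 (SE, edgeR adjusted p = 0.00244), and stayed lower after the length correction (-0.31, edgeR adjusted p = 0.0215). Atg9a, the scramblase of the autophagosome, was at -0.17, Tmem41b at 0.23 and Vmp1 at 0.03, and none of these 3 was called. Atg9a and Tmem41b were each called in 3 of the 12 fits that leave out 1 mouse and with a correction for GC content. With the length correction Tmem41b was called higher (0.30, edgeR adjusted p = 0.0264).

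Of 9 proteins that anchor Vps13 to membranes, 3 were called higher, 1 lower and 5 neither, next to 22.4% higher and 23.0% lower over all genes tested. Vapa, which holds FFAT-bearing proteins such as VPS13A and VPS13C at the endoplasmic reticulum, was higher (0.38 ± 0.074, SE, edgeR adjusted p = 9.60e-04) and its paralog Vapb was not called (-0.02). Rab7, the late endosome GTPase that recruits VPS13C, was called higher (0.27, edgeR adjusted p = 0.0167) but lower after the length correction (-0.24, edgeR adjusted p = 0.0115), with a listed length of 624 bases. Stx6 was called higher (0.31, edgeR adjusted p = 0.0216), and Mospd2 lower (-0.20, edgeR adjusted p = 0.0446), a call that held in 3 of the 12 fits that leave out 1 mouse.

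The mitochondrial anchors of VPS13D, Rhot1 and Rhot2, were at -0.08 and -0.25, the Golgi GTPase Rab6a of VPS13B at 0.07 and Stx12 at -0.22, and none of them was called. After the correction Vapb was called higher (0.33, edgeR adjusted p = 0.00237) and Stx12 lower (-0.28, edgeR adjusted p = 0.0435), and Stx6 was not called.

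Shuttle lipid transfer proteins, which ferry single lipids, went both ways: of 30 tested among 39 listed, 7 were called higher, 10 lower and 13 neither, with a median of -0.11. Over all genes tested 22.4% were called higher and 23.0% lower, so that going both ways is not particular to this list. The sterol carrier of the endoplasmic reticulum and plasma membrane Gramd1a had the largest fall (-0.74 ± 0.227, SE, edgeR adjusted p = 0.0156), with young mice from 56.1 to 142 CPM and aged mice from 42.8 to 66.1 CPM. Its paralog Gramd1b had the smallest p (-0.59 ± 0.0769, SE, edgeR adjusted p = 6.68e-05). Prelid1, which moves phosphatidic acid between the mitochondrial membranes, had the largest rise (0.67 ± 0.114, SE, edgeR adjusted p = 3.81e-04). After the length correction 8 were called higher and 5 lower, and these 3 kept their calls, while with libraries scaled on long genes Gramd1a (-0.19) and Gramd1b (-0.0660) were not called.

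Mitochondrial quality control genes, the process in which VPS13D takes part, also went both ways. Of 11 tested among 12 listed, 5 were called higher and 3 lower, with a median of 0.11. The shares over all genes tested were 22.4% higher and 23.0% lower, so that both directions are seen in the whole table too. Fis1, a receptor for the fission machinery, was at 217 ± 28.1 CPM in aged and 129 ± 31.8 CPM in young mice (SD, n = 6 each), the largest rise of the list (0.76 ± 0.149, SE, edgeR adjusted p = 0.00106). The kinase Pink1, which marks damaged mitochondria, rose by 0.63 (edgeR adjusted p = 0.00118), and the mitophagy receptors Bnip3 (0.65, edgeR adjusted p = 0.0139), Bnip3l (0.29, edgeR adjusted p = 0.0123) and Fundc1 (0.43, edgeR adjusted p = 0.0135) were called higher as well. Fundc1 was not called after the length correction (0.31, edgeR adjusted p = 0.0558) or with thinned libraries (0.33, edgeR adjusted p = 0.110).

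Lrrk2, a kinase that like VPS13C acts at lysosomes and is linked to Parkinson's disease, had the largest fall of the list. It was at 534 ± 45.8 CPM in aged and 871 ± 89.1 CPM in young mice (SD, n = 6 each), a log2 fold change of -0.71 ± 0.0813 (SE, edgeR adjusted p = 2.61e-05), and it stayed lower after the length correction (-0.28, edgeR adjusted p = 0.00322). Its length is 8230 bases. The fission GTPase Dnm1l was lower (-0.53, edgeR adjusted p = 0.0128; corrected -0.39), and the fusion GTPase Opa1 was called lower (-0.23, edgeR adjusted p = 0.0329), in 6 of the 12 fits that leave out 1 mouse, and at 0.04 after the correction. Mfn1 at -0.13, Mfn2 at -0.01 and Usp30 at 0.11 were not called. After the correction 4 of the 11 were called higher and 2 lower.

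**Figure D5:**
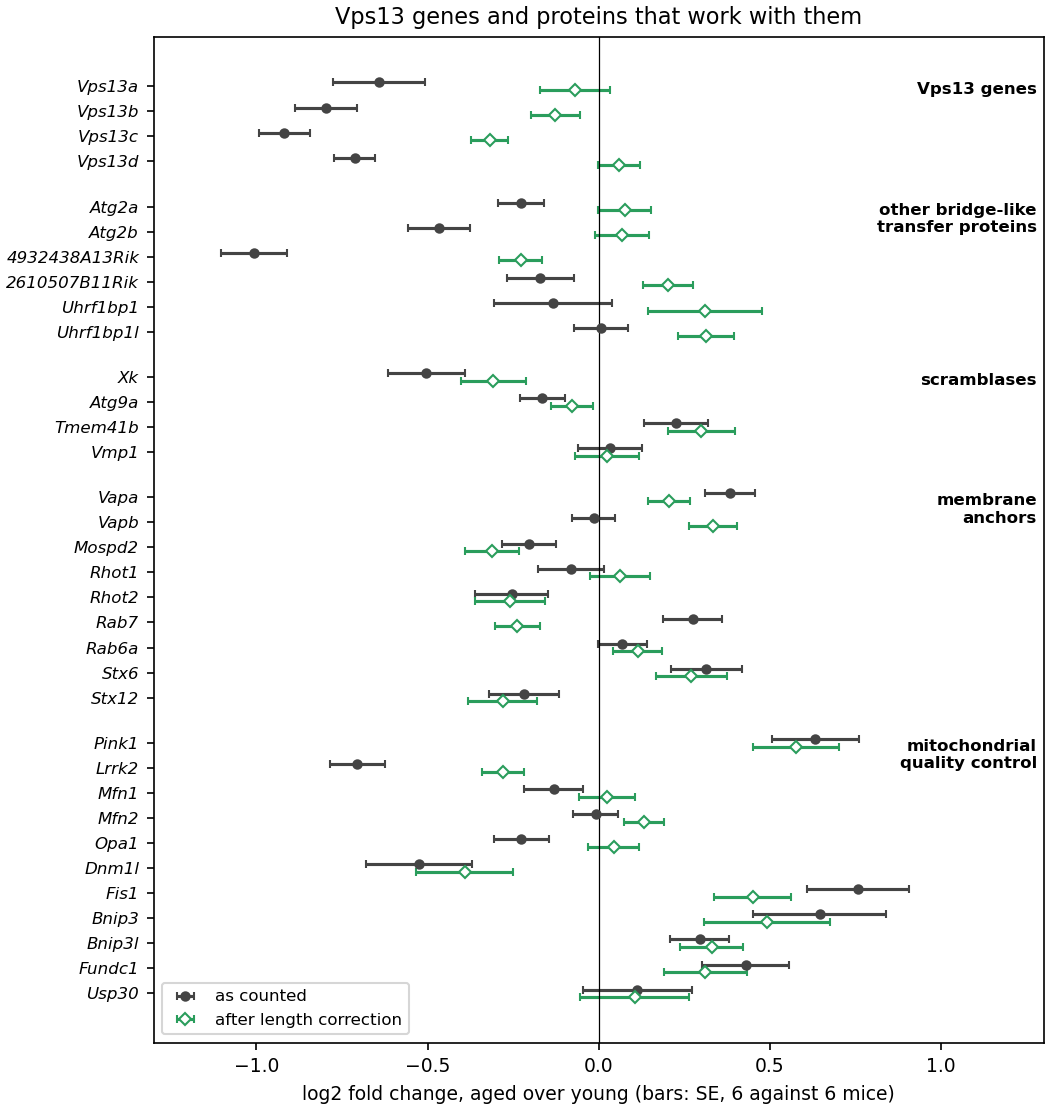
Log2 fold change of aged over young mice (horizontal axis; bars are SE, 6 against 6 mice) of the Vps13 genes, the other bridge-like transfer proteins, scramblases, membrane anchors and mitochondrial quality control genes, as counted (filled circles) and after the length correction (open diamonds). The longest genes, the Vps13 genes and 4932438A13Rik, move most with the correction, and Vps13c, 4932438A13Rik, Xk and Lrrk2 are among those that stay below 0 by more than their SE.

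Over the 5 lists, 60 of 70 genes were tested, of which 15 were called higher, 18 lower and 27 neither, next to 45.4% called in either direction among all genes tested. After the length correction 17 were higher and 12 lower. Each Vps13 gene kept its direction when any 1 of the 12 mice was left out, with log2 fold changes of -0.76 to -0.57 for Vps13a, -0.87 to -0.74 for Vps13b, -0.96 to -0.86 for Vps13c and -0.73 to -0.69 for Vps13d. Without aged mouse 1, which held the most macrophage marker counts, they were -0.65, -0.78, -0.90 and -0.70 in that order.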

How the data were processed

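The authors deposited raw counts, whole numbers of read pairs per gene made with featureCounts 2.0.0 on a UCSC annotation of mm10, reverse stranded, both ends aligned, and a minimum mapping quality of 60. Which aligner they ran is not given in the sources used here. Each library was placed by its label, and all 12 were used. No pair of libraries of 1 age agreed within sampling noise. Genes kept by filterByExpr of edgeR 4.0.16 (R 4.3.3) were scaled with TMM factors and fitted with the quasi-likelihood test, with Benjamini-Hochberg adjustment over 9742 genes and a threshold of 0.05; "called" means under it. The common coefficient of variation was 15.7%. The length correction subtracted a loess curve (span 0.4) per library. Alternatives used DESeq2 1.42.0, limma 3.58.1, other scalings and filters, thinning and GC content (94.4% of genes tested had a value). Correlations and slopes were tested by exact permutation with SciPy 1.17.1. Model fits were tested on simulated data. The members and lists were chosen with earlier results of these data known. Named genes are the members, in each list the largest called rise, the largest called fall, the smallest p and uncalled or opposed genes where 5 or fewer, and the 3 genes most like each member.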

Additional observations from a re-analysis of the deposited data

Results flagged for a closer look

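Dixon's test at the 95% level was applied to 88 groups of 6 mice, and 8 groups held a mouse that stood apart, where chance gives about 1 in 20 groups. Aged mouse 7 stood apart in 4 of the 8. Its slope of log2 CPM on gene length was -0.0242, and the next aged mouse was at -0.106. Its level was 123 CPM of 2610507B11Rik with the next aged mouse at 98.8, 37.3 CPM of Xk with the next at 27.3, and 45.9 CPM of Mospd2 with the next at 39.2. In young mouse 10 the log2 ratio of Vps13a over Vps13b was -3.34, and the next young mouse was at -2.95. Young mouse 10 also had the highest Rab6a of the young mice, 389 CPM with the next at 354. Young mouse 5 had 29.0 CPM of Rhot1 with the next at 22.6, and young mouse 2 had 9.63 CPM of Usp30 with the next at 6.50.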

How the results depend on the processing

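Vps13c kept its call under all alternatives, from -1.04 to -0.32 on the log2 scale. The length correction gave -0.0687 for Vps13a, -0.13 for Vps13b and 0.0596 for Vps13d, none of them called, and scaling over long genes gave -0.13 for Vps13a, not called. That scaling moves every gene upward by construction: 6632 genes and 46 list genes were then called higher and 371 and 2 lower. It turned the direction of Atg2a (0.29), Atg2b (0.0548), 2610507B11Rik (0.34), Xk (0.00479), Uhrf1bp1 (0.38), Atg9a (0.35), Vapb (0.51), Mospd2 (0.31), Rhot1 (0.44), Rhot2 (0.27), Stx12 (0.30), Mfn1 (0.38), Mfn2 (0.50) and Opa1 (0.28), and Gramd1a (-0.19), Gramd1b (-0.0660) and Dnm1l (-0.00754) were no longer called, while Uhrf1bp1l (0.52), Tmem41b (0.75), Vmp1 (0.56), Rab6a (0.58) and Usp30 (0.63) were called higher. The length correction turned Atg2a (0.0756), Atg2b (0.0674), 2610507B11Rik (0.20), Vapb (0.33), Rab7 (-0.24), Opa1 (0.0438), Uhrf1bp1 (0.31), Rhot1 (0.0622), Mfn1 (0.0241) and Mfn2 (0.132). Signs also changed, with neither value called, for Rab6a (-0.0191), Uhrf1bp1l (-0.0824) and Vmp1 (-0.0581) without TMM factors, Mfn2 (0.0255) and Vapb (0.0196) with upper quartile scaling, Vapb (0.00615) with GC correction, and Mfn2 (0.000382) and Uhrf1bp1l (-0.0092) with thinning. In place of TPM, CPM per kilobase gave log2 ratios of -0.65 for Vps13a, -0.80 for Vps13b, -0.92 for Vps13c and -0.71 for Vps13d. With length-corrected values, a setting chosen after seeing the data, the log2 ratio of Vps13c over Vps13d differed between ages by -0.38, that of Vps13a over Vps13d went from 0.06 to -0.14, and r in young mice was 0.0270 for Vps13a and Vps13b, -0.0451 for Vps13a and Vps13d, -0.22 for Vps13b and Vps13c and -0.32 for Vps13c and Vps13d, and r in aged mice was -0.77 for Vps13a and Vps13c, -0.52 for Vps13a and Vps13d, -0.61 for Vps13b and Vps13c and -0.22 for Vps13b and Vps13d. Leaving out 1 mouse left 1864 to 2321 genes called higher and 1940 to 2383 lower, with 14 to 16 and 14 to 18 list genes, and the length slope differed by -0.24 to -0.20. Stx6 was not called without young mouse 5 (0.28), Rhot2 was called without young mouse 1 (-0.32), Stx12 without young mouse 9 (-0.27) and 2610507B11Rik without aged mouse 7 (-0.25). Atg9a was called without aged mouse 4, young mouse 1 or young mouse 2, and Tmem41b without aged mouse 4, aged mouse 7 or young mouse 10. Values on both sides of 0 were seen for Uhrf1bp1l (-0.0195 to 0.0469), Vmp1 (-0.0269 to 0.0807), Vapb (-0.0382 to 0.00976), Rhot1 (-0.111 to 0.0118) and Mfn2 (-0.0538 to 0.0188). Other settings changed the call of Mospd2, Opa1, Stx6, Stx12, Rhot2, Atg9a (GC correction, thinning, no TMM factors), Tmem41b (GC correction, upper quartile), Atg2a and Fundc1 (thinning). The cause of these changes was not tested.

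With the mouse number as a block, over the 4 numbers that both ages share, the log2 fold changes were -0.88 for Vps13a, -0.89 for Vps13b, -1.04 for Vps13c and -0.80 for Vps13d, and without the block in the same mice -0.87, -0.88, -1.04 and -0.80. In these mice 2610507B11Rik was called with (-0.38, edgeR adjusted p = 0.0158) and without the block (-0.39, edgeR adjusted p = 0.00218), as was Stx12 (-0.38 and -0.39). Atg2a (-0.24, edgeR adjusted p = 0.0567), Stx6 (0.39) and Opa1 (-0.29) were not called with the block, Mospd2 with neither (-0.23 and -0.24), and Tmem41b was called without it (0.35). Uhrf1bp1l was at -0.0677 with the block and -0.0638 without it. The block left 1586 genes called higher and 1860 lower, compared to 2088 and 2306 without it. The deviations of same-numbered mice correlated at -0.141, -0.0655, -0.245 and -0.246, so the numbers do not pair the mice.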
